A study of Mus musculus with 7 samples.

Results

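The endocannabinoid signalling genes described here are the cannabinoid receptor gene Cnr1 and 6 genes of enzymes that make or break down endocannabinoids: Dagla, Daglb, Napepld, Mgll, Abhd6 and Faah. They were chosen by symbol from the deposited count table, which lists 35976 symbols. All 7 were found, and all 7 were among the 14412 genes that passed the filter on low counts. The counts came from 7 RNA-seq libraries of amygdala cells of C57BL/6J males. The amygdala had received, by adeno-associated virus, the control guide sgRosa (4 libraries) or the guide sgNr2f2 (3 libraries), with Cas9 under the neuronal Hsyn promoter. Every mouse, controls included, then went through 7 days of tube restraint, fear conditioning on 1 day and extinction over 3 days, and the series has no unstressed group. Neurons were taken from papain-digested tissue with a magnetic isolation kit, and 5 ng of RNA entered each library. No age is given, nor whether a library is 1 animal or a pool, so the tests cover only the spread among these libraries, which may be technical in part. Values given library by library stand in the order of the replicate numbers.

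Endocannabinoids are lipids that a postsynaptic neuron makes on demand and that act backwards across the synapse on the CB1 receptor of the presynaptic terminal, where they lower transmitter release. The diacylglycerol lipases make 2-arachidonoylglycerol, and monoacylglycerol lipase and ABHD6 break it down. NAPE-PLD makes anandamide and related lipids, and FAAH breaks anandamide down. In the amygdala, CB1 is abundant on terminals of cholecystokinin interneurons and is known for its part in the extinction of fear memories and in the response to stress.

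Library totals ran from 6266897 counts (sgRosa replicate 4) to 20928677 (sgNr2f2 replicate 3). The targeted gene Nr2f2 had 96 to 422 counts in sgRosa and 191 to 214 in sgNr2f2, with levels of 15.2 ± 3.76 CPM (SD, n = 4) and 11.8 ± 0.22 CPM (n = 3). CPM here are counts scaled to library totals corrected by TMM factors. Its log2 fold change was -0.36 (SE 0.37) and did not pass (edgeR adjusted p = 0.905). Such counts cannot show whether the genomic site was edited. The label calls these cells neurons. Together 17 neuron markers took 0.0713 to 0.574% of a library, 11 oligodendrocyte markers 2.69 to 32.2% and 7 endothelial markers 0.175 to 0.607%. These are shares of counts and not of cells, since the lists hold genes of unlike abundance. Among the oligodendrocyte markers Mbp had 22210900 counts over the 7 libraries and Mobp 4584298. None of the 17 neuron markers was at 0 in any library. Between the guides 16 of the 17 lay on the lower side in sgNr2f2 (median log2 fold change -0.97) and 10 of the 11 oligodendrocyte markers on the higher side (median 0.51), while 56.2% of all genes lay lower and 43.8% higher. All 5 erythroid genes lay lower (median -2.64), and 0 genes were called in these 3 lists. sgRosa replicate 4 stood apart, with a mean correlation of 0.72 with the other libraries against 0.88 to 0.90 for the rest. It had the highest neuron marker share (0.574%), the lowest oligodendrocyte share (2.69%) and 3.70% of its counts in the erythroid genes, against 0.0958 to 0.316% elsewhere. Without it 11 of the 17 neuron markers lay lower (median -0.23), 9 of the 11 oligodendrocyte markers higher (median 0.18) and the 5 erythroid genes lower (median -0.61), while 52.5% of all genes lay lower and 47.5% higher. Its neuron markers did not move as 1 block: it had 7307 counts of Gap43 but only 271 of Snap25, which had 2109 to 4388 counts in the other libraries. In bulk RNA such as this, fewer cells of a type and less RNA per cell cannot be told apart.

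Mgll and Abhd6, the enzymes that break down 2-arachidonoylglycerol, were the most abundant members. Levels were compared between genes as CPM per kilobase of annotated exon sequence (GENCODE M21). On this scale Mgll lay at 13.3 ± 11.9 in sgRosa (SD, n = 4) and 11.6 ± 2.32 in sgNr2f2 (n = 3), and Abhd6 at 13.3 ± 9.67 and 9.02 ± 0.39. Both were above the other 5 members in all 7 libraries. They did not differ from each other beyond their spread, since Mgll was the higher in 4 of 7 libraries. Cnr1 came next in sgRosa at 2.06 ± 1.29, followed by Napepld at 1.59 ± 0.91, Faah at 1.58 ± 0.34, Dagla at 1.53 ± 1.40 and Daglb at 0.89 ± 0.35. In sgNr2f2 the order of these 5 was Faah (1.68 ± 1.1997), Daglb (1.22 ± 0.11), Napepld (1.06 ± 0.74), Dagla (0.80 ± 0.29) and Cnr1 (0.79 ± 0.61). Neighbours among these 5 lay within the spread of the libraries in both orders.

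In CPM with all 7 libraries, no member was called different between the guides. In the edgeR quasi-likelihood test over all 14412 genes, 0 of the 7 members passed the adjusted threshold of 0.05, where the background was 0% of all genes higher and 0% lower. Their adjusted p ran from 0.868 for Cnr1 to 0.987 for Faah. At an unadjusted p under 0.05 the background was 2.18% of genes higher and 2.82% lower, and 0 members were among them. On log2 fold change 2 members lay on the higher side in sgNr2f2 (Daglb and Faah) and 5 on the lower side, with a median of -0.55, against -0.11 over all genes tested, of which 56.2% lay lower and 43.8% higher. Without sgRosa replicate 4 these became 4 members on the higher and 3 on the lower side, with a median of 0.07, against -0.03 over all genes. The groups overlapped in CPM for all 7 members, against a background of 4.41% of genes that were higher without overlap and 3.9% that were lower. DESeq2 and limma-voom also called 0 members, where DESeq2 called 0.00418% of the genes it tested higher and 0.0251% lower and limma-voom called 0% in both directions.

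**Figure D1:**
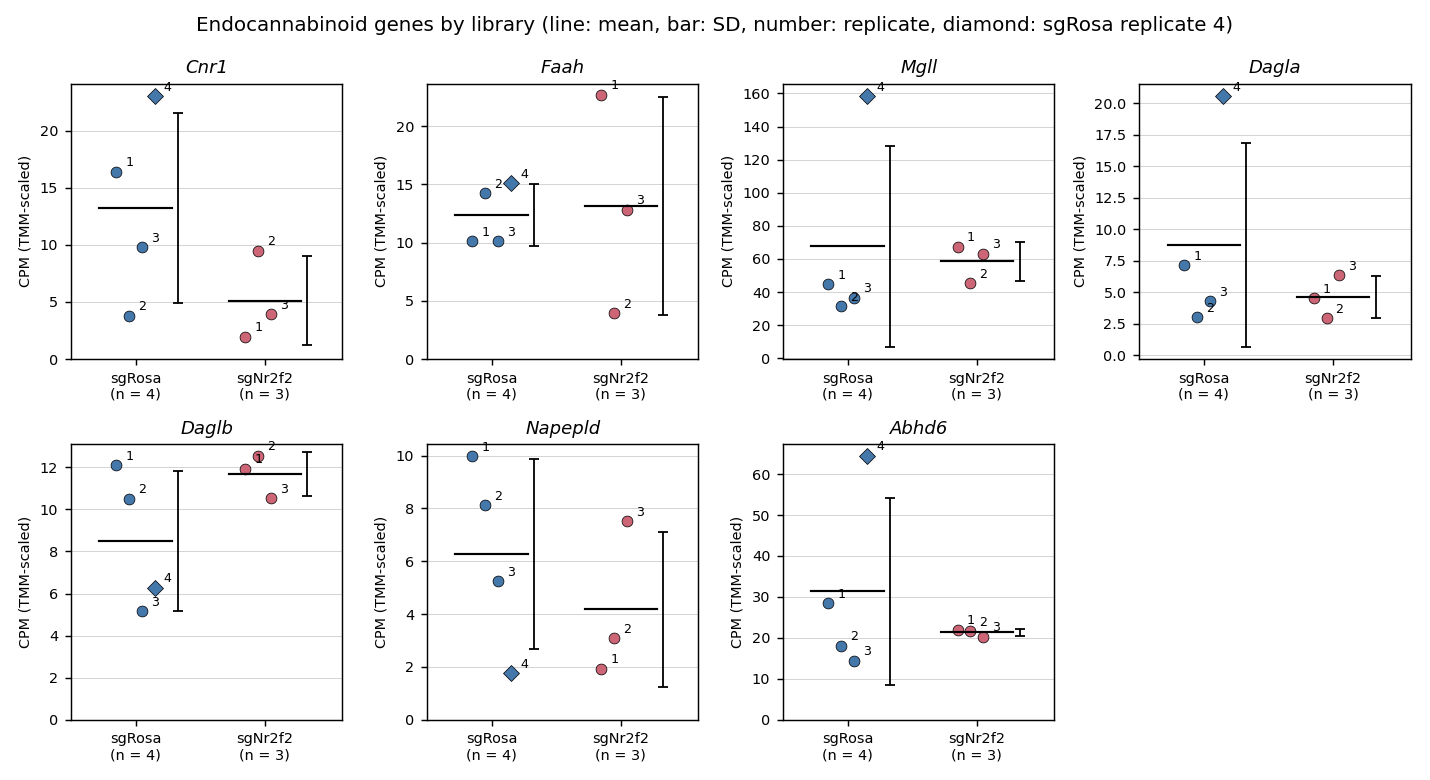
CPM (TMM-scaled, linear axis) of each of the 7 genes in the 4 sgRosa and 3 sgNr2f2 libraries; points are libraries with their replicate number, lines are group means and bars are SD. sgRosa replicate 4, the diamond, holds the highest value of Cnr1, Mgll, Dagla and Abhd6 and the lowest of Napepld.

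Cnr1 encodes the CB1 receptor and lies on chromosome 4 (33923171 to 33948831, GRCm38.p6, the mm10 assembly). It had 350, 70, 144 and 169 counts in sgRosa and 32, 169 and 65 in sgNr2f2. As CPM these were 16.4, 3.79, 9.80 and 23.03 in sgRosa and 1.94, 9.47 and 3.93 in sgNr2f2. sgNr2f2 replicate 3 lay near sgRosa replicate 2 and sgNr2f2 replicate 2 near sgRosa replicate 3, so the groups overlapped, and sgNr2f2 replicate 1 was the lowest of all. The means were 13.3 ± 8.31 CPM (SD, n = 4) and 5.12 ± 3.90 CPM (n = 3). Cnr1 had the smallest p among the members, with a log2 fold change of -1.37 (SE 0.70, 95% confidence interval -2.93 to 0.19) that missed the threshold (adjusted p = 0.868 with edgeR). The exact permutation p of its mean log2 CPM was 0.2 (two-sided). The estimate was -0.97 without sgRosa replicate 4, -2.16 without sgNr2f2 replicate 2 and -0.49 when libraries were scaled to the neuron markers, and it was below 0 in every setting tried. Markers of the cells known for high Cnr1 were sparse. The 8 markers of cholecystokinin and related interneurons summed to 0.00641, 0.00301, 0.00302 and 0.0152% of counts in sgRosa and 0.00294, 0.00171 and 0.00206% in sgNr2f2, and 3 of the 8 were at 0 in at least 1 library. The list was uneven in sgRosa replicate 4, where Sncg had 539 counts, Cck 297, Npas1 66 and Adarb2 26. Cxcl14 had 23 counts there, against 166 to 243 in the other sgRosa libraries, Vip had 2, and Slc17a8 and Htr3a had 0. The sum, though not each gene, was highest in sgRosa replicates 4 and 1, the same libraries in which Cnr1 was highest. That match was not particular to these interneuron markers. The general neuron markers were also highest in replicates 4 and 1, at 0.574 and 0.160% of counts. So were the summed excitatory neuron markers (0.0529 and 0.0398%) and inhibitory neuron markers (0.0146 and 0.0125%). Single genes of these lists did not all follow in sgRosa replicate 4, the smallest library. Camk2a had 2229 counts there and Slc17a6 1016, but Nrn1 had 11 and Neurod2 0. Gad2 had 348 counts and Slc32a1 212, but Gad1 had 33, against 166 to 391 in the other libraries. In sgNr2f2 the orders of Cnr1 and the interneuron sum differed, since replicate 2 had the most Cnr1 and the lowest sum. Shares of other cell types also went with Cnr1. Endothelial markers took 0.607, 0.175, 0.214 and 0.437% of counts in sgRosa and 0.195, 0.516 and 0.188% in sgNr2f2. They were highest in sgRosa replicates 1, 4 and 3 and sgNr2f2 replicate 2, the libraries with the most Cnr1. Oligodendrocyte shares were lowest in sgRosa replicates 4 and 1 and sgNr2f2 replicate 2 (2.69, 13.6 and 17.9%). Cck itself, the cholecystokinin gene, had 504, 104, 40 and 297 counts in sgRosa and 130, 31 and 172 in sgNr2f2. The part of any of these cell types in the Cnr1 values was not tested.

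The promoter of Cnr1 is shown because, of the members' promoters searched, which did not include one of Dagla, it alone held the core motif of nuclear receptors such as Nr2f2. Nr2f2, also called COUP-TFII, is known to bind repeats of AGGTCA. RefSeq start sites (GRCm38.p6) gave 10 windows for 6 of the members, each from 250 bases before to 50 after a start. AGGTCA was searched on both strands and was found in 1 of the 10 windows, against 16.3% of all 32851 windows of this length. AGGTCA repeated in the same direction with 1 base between was in 0 of the 10 (0.0396% of all). The glucocorticoid receptor motif, GNACA and TGTNC with 3 bases between, was in 0 of the 10 (0.475% of all). The 250 bases before that Cnr1 start, chr4:33924014-33924263 on the plus strand, are given 5′ to 3′ with the match in capitals.
Cnr1 upstream: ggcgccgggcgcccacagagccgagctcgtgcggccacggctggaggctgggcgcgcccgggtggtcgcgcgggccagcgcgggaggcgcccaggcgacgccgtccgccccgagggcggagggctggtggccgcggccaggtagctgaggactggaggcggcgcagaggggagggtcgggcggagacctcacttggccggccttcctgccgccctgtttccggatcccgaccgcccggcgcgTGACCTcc
The capitals are AGGTCA read on the other strand. They begin 8 bases before the start site, and GC bases made up 76.3% of the whole window. The other Cnr1 windows, chr4:33924394-33924693 and chr4:33926130-33926429, held no match. These data hold no measurement of binding, so the match is a description of the sequence.

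The diacylglycerol lipases Dagla and Daglb lay on different sides of 0. Dagla, on chromosome 19 (10245265 to 10304877), encodes the lipase that makes most of the 2-arachidonoylglycerol used at synapses. Its levels were 7.17, 3.03, 4.29 and 20.6 CPM in sgRosa and 4.54, 2.97 and 6.36 CPM in sgNr2f2. All 3 sgNr2f2 values lay in or near the range of sgRosa replicates 1 to 3, and sgRosa replicate 4 lay far above every other library. The log2 fold change was -0.91 (SE 0.68, edgeR adjusted p = 0.874) and became -0.07 without that library. Daglb, on chromosome 5 (143464484 to 143504442), encodes the second such lipase, which is known mainly from microglia and other non-neuronal cells. It had 12.1, 10.5, 5.17 and 6.27 CPM in sgRosa and 11.9, 12.6 and 10.5 CPM in sgNr2f2. The 3 sgNr2f2 values were close together and level with sgRosa replicates 1 and 2, while sgRosa replicates 3 and 4 were lower. Its log2 fold change was 0.45 (SE 0.43, edgeR adjusted p = 0.902) and stayed above 0 in every setting tried, from 0.19 to 0.76. Microglia markers summed to 0.00281 to 0.00419% of counts in every library, and 2 of the 10, Cx3cr1 and P2ry12, were at 0 in at least 1 library; their part in the Daglb values was not tested. Daglb shares 2309 of its 9567 annotated exon bases with Rac1 on the opposite strand, and the strand setting of the counting is not given in the sources used here, so its counts are uncertain there.

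Napepld, on chromosome 5 (21662901 to 21701622), encodes the phospholipase that releases anandamide from its membrane precursor. It had 213, 150, 77 and 13 counts in sgRosa and 32, 55 and 124 in sgNr2f2. As CPM these were 9.99, 8.12, 5.24 and 1.77 in sgRosa and 1.94, 3.08 and 7.51 in sgNr2f2. Unlike Cnr1, Mgll, Dagla and Abhd6, it had its lowest level of all 7 libraries in sgRosa replicate 4, and the groups overlapped across nearly their whole range. The log2 fold change was -0.60 (SE 0.67, edgeR adjusted p = 0.91). It was -1.32 without sgNr2f2 replicate 3, -0.27 without sgNr2f2 replicate 1 and -0.90 without sgRosa replicate 4.

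Mgll, on chromosome 6 (88724412 to 88828360), encodes monoacylglycerol lipase, which removes most 2-arachidonoylglycerol in brain. It had 954, 579, 539 and 1162 counts in sgRosa and 1114, 808 and 1044 in sgNr2f2. As CPM these were 44.7, 31.3, 36.7 and 158 in sgRosa and 67.5, 45.3 and 63.2 in sgNr2f2. sgRosa replicate 4 was above all other libraries, and the other 3 sgRosa libraries were below all 3 sgNr2f2 libraries, by 44.7 against 45.3 CPM at the closest. With all libraries the means were 67.8 ± 60.6 CPM (SD, n = 4) and 58.7 ± 11.8 CPM (n = 3), and the log2 fold change was -0.21 (SE 0.60, 95% confidence interval -1.54 to 1.13, edgeR adjusted p = 0.969). With that library left out, sgRosa averaged 37.6 ± 6.73 CPM (n = 3) and the log2 fold change turned to 0.64 (edgeR adjusted p = 0.416, unadjusted p = 0.0377), which did not pass. Mgll was then the 1 member whose groups did not overlap, against a background of 8.99% of genes that were higher without overlap and 9.01% that were lower. The direction of Mgll in CPM rested on this library, which also had the highest neuron marker share and the lowest oligodendrocyte share, and the part of these in the result was not tested. Limma-voom with quality weights, which lowers the influence of variable libraries while keeping all 7, gave 0.75 (adjusted p = 0.235).

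Abhd6, on chromosome 14 (8002888 to 8056773), encodes a postsynaptic hydrolase of 2-arachidonoylglycerol. Its levels were 28.4, 18.1, 14.4 and 64.5 CPM in sgRosa and 22.0, 21.6 and 20.3 CPM in sgNr2f2. The sgNr2f2 libraries were nearly alike and lay inside the sgRosa range. The log2 fold change was -0.55 (SE 0.53, edgeR adjusted p = 0.904), and 0.07 without sgRosa replicate 4. Faah, on chromosome 4 (115996668 to 116018837), encodes fatty acid amide hydrolase, the main enzyme that ends anandamide signalling. It had 10.1, 14.2, 10.1 and 15.1 CPM in sgRosa and 22.7, 3.92 and 12.8 CPM in sgNr2f2. Here the sgRosa libraries were close together, sgRosa replicate 4 included, and the sgNr2f2 libraries held both the highest and the lowest value. The means were 12.4 ± 2.65 CPM (SD, n = 4) and 13.2 ± 9.40 CPM (n = 3), with a log2 fold change of 0.09 (SE 0.54, edgeR adjusted p = 0.987). It was -0.58 without sgNr2f2 replicate 1, 0.52 without sgNr2f2 replicate 2 and 0.19 without sgRosa replicate 4.

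**Figure D2:**
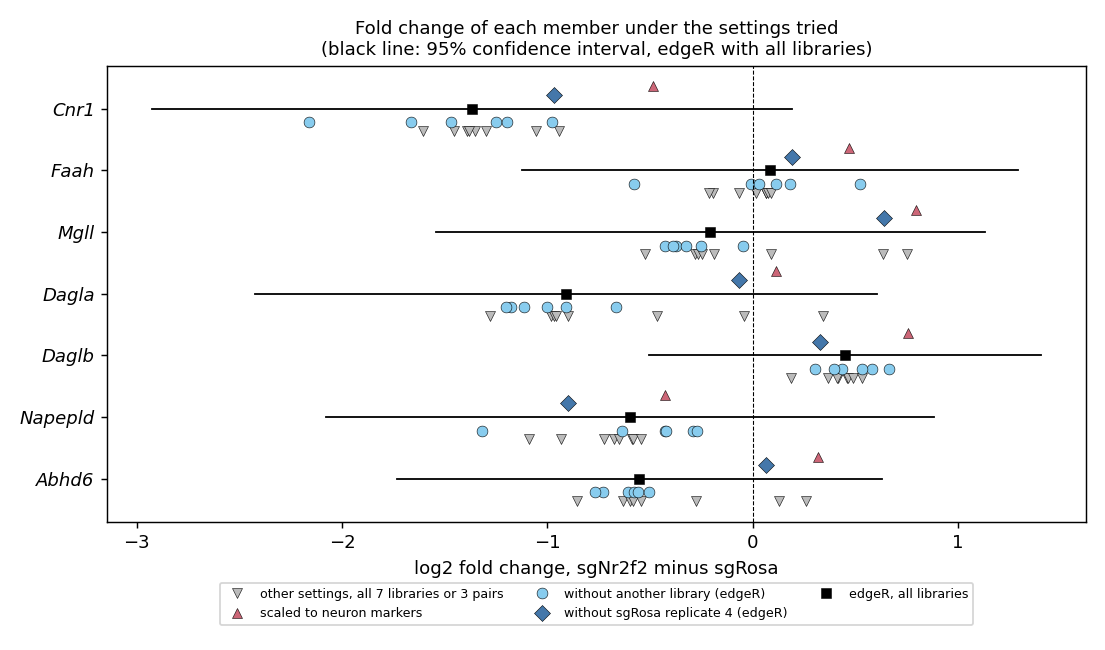
Log2 fold change (sgNr2f2 minus sgRosa) of each member in the edgeR fit of all libraries (black square with its 95% confidence interval), in fits that left out 1 library, with scaling to neuron markers and in the other settings. Mgll moved from -0.21 to 0.64 without sgRosa replicate 4, while Cnr1 and Napepld stayed below 0 and Daglb above 0 in every setting drawn.

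Because libraries held unequal shares of neuronal RNA, each member was also set against the summed counts of the 17 neuron markers. Mgll then had 388, 411, 325 and 323 counts per 10000 neuron marker counts in sgRosa and 678, 544 and 663 in sgNr2f2. On this scale sgRosa replicate 4 lay with the other sgRosa libraries. That place depends on the markers summed, which were uneven in this library (7307 counts of Gap43 but 271 of Snap25). With this sum all 3 sgNr2f2 libraries were above all 4 sgRosa libraries. The means were 362 ± 44.6 (SD, n = 4) and 628 ± 73.0 (n = 3), a log2 difference of 0.80. The exact two-sided permutation p was 0.0286, the smallest that the 35 ways to assign 7 libraries can give. After adjustment over the 7 members it was 0.2, which did not pass. A single member at the smallest possible p could not pass this adjustment, so the adjusted p decides nothing here. Of all genes, 7.75% were higher without overlap on this scale and 0.527% were lower, and the median log2 fold change of all genes was 0.33 in the edgeR fit scaled to these markers. Relative to that median Mgll lay at 0.47 there. Leaving out any 1 library moved the log2 difference between 0.74 and 0.90. Set against lists of 8 excitatory and 7 inhibitory neuron markers instead, Mgll had a log2 difference of 0.74. Its exact permutation p was then 0.0571 (adjusted p = 0.4).

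The other 6 members overlapped between the guides on the neuron marker scale. Cnr1 had 142, 49.6, 86.7 and 47.0 counts per 10000 in sgRosa and 19.5, 113.8 and 41.3 in sgNr2f2. sgRosa replicate 4, which had the most Cnr1 as CPM, was the lowest sgRosa library here, and the log2 difference was -0.69 (exact permutation p = 0.429, adjusted p = 0.75). It was -0.09 without sgNr2f2 replicate 1, -0.38 without sgRosa replicate 1 and -1.36 without sgNr2f2 replicate 2. Dagla was at 62.3, 39.7, 37.9 and 42.0 in sgRosa and 45.6, 35.7 and 66.6 in sgNr2f2 (log2 difference 0.10, exact permutation p = 0.657, adjusted p = 0.767). Its excess in sgRosa replicate 4 as CPM was absent on this scale. The log2 differences of Abhd6, Daglb, Faah and Napepld were 0.38, 1.22, 0.46 and 0.12, with adjusted p from 0.75 to 1 (exact permutation). Daglb was at 0.53 without sgRosa replicate 4, and Abhd6 at 0.22 without sgRosa replicate 3 and 0.24 without sgRosa replicate 4. Faah and Napepld turned direction without 1 library, Faah to -0.04 without sgNr2f2 replicate 1 and Napepld to -0.96 without sgRosa replicate 4 and -0.39 without sgNr2f2 replicate 3. Daglb and Napepld were far lower in sgRosa replicate 4 than in any other library here, at 12.8 and 3.61 counts per 10000.

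**Figure D3:**
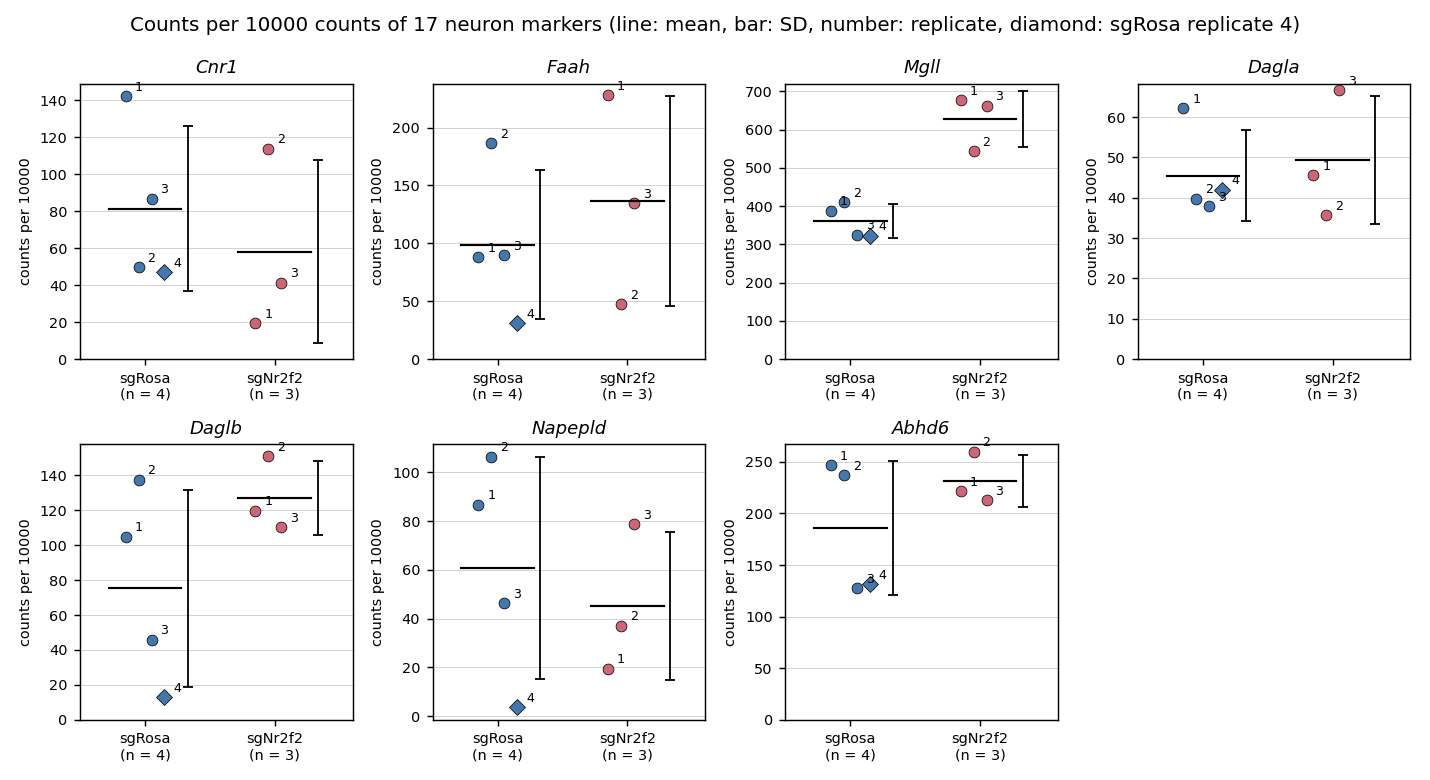
Counts of each member per 10000 counts of the 17 neuron markers (linear axis) in the 4 sgRosa and 3 sgNr2f2 libraries; points are libraries with their replicate number, lines are means and bars are SD. For Mgll the sgRosa libraries lie between 323 and 411 and the sgNr2f2 libraries between 544 and 678, while the other genes overlap.

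Ratios of counts between members of the same library do not depend on how the library is scaled. Mgll to Dagla, Abhd6 to Dagla and Faah to Napepld compare breakdown with synthesis. Mgll to Abhd6 sets breakdown enzymes against each other, and Dagla to Daglb synthesis enzymes. All are ratios of counts and not of molecules, since the transcripts differ in length, and they can still differ with the cell makeup of a library. Mgll had 6.22, 10.3, 8.496 and 7.67 counts for each count of Dagla in sgRosa, and 14.8, 15.1 and 9.90 in sgNr2f2. Only sgNr2f2 replicate 3 reached into the sgRosa range, where it lay just under sgRosa replicate 2. The log2 ratio was 3.01 ± 0.30 (SD, n = 4) in sgRosa and 3.70 ± 0.34 (n = 3) in sgNr2f2, a difference of 0.70, or 1.62-fold (exact permutation p = 0.0857, adjusted p = 0.429 over 5 ratios). The difference stayed between 0.57 and 0.90 when any 1 library was left out, sgRosa replicate 4 included. With 5 ratios, a single one at the smallest possible p could not pass after adjustment. Mgll to Abhd6, the presynaptic against the postsynaptic hydrolase, was 1.57, 1.73, 2.54 and 2.46 in sgRosa and 3.06, 2.09 and 3.11 in sgNr2f2. sgNr2f2 replicate 2 lay inside the sgRosa range (log2 difference 0.42, exact permutation p = 0.171, adjusted p = 0.429).

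The remaining ratios also overlapped between the guides. Dagla to Daglb was 0.59, 0.29, 0.83 and 3.26 in sgRosa and 0.38, 0.24 and 0.60 in sgNr2f2, and its log2 difference of -1.12 (exact permutation p = 0.257, adjusted p = 0.429) became -0.46 without sgRosa replicate 4. Abhd6 to Dagla had a log2 difference of 0.28 (exact permutation p = 0.457, adjusted p = 0.571). Faah to Napepld, breakdown against synthesis of anandamide, was 1.01, 1.75, 1.93 and 8.26 in sgRosa and 11.6, 1.27 and 1.71 in sgNr2f2. In each group a single library stood far above the rest, sgRosa replicate 4 and sgNr2f2 replicate 1, and the log2 difference of 0.34 had an exact permutation p of 0.686 (adjusted p = 0.686). It was 0.96 without sgRosa replicate 4 and -0.65 without sgNr2f2 replicate 1.

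**Figure D4:**
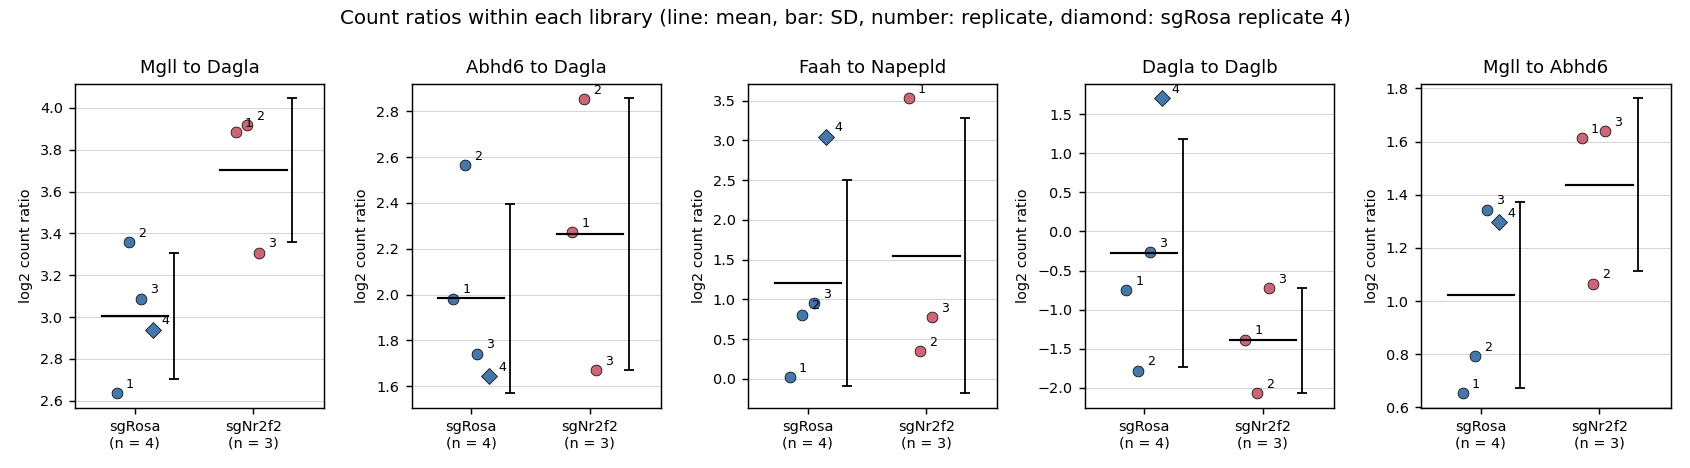
Log2 ratio of the counts of 2 members of the same library, for 5 pairs, in the 4 sgRosa and 3 sgNr2f2 libraries; points are libraries with their replicate number, lines are means and bars are SD. Mgll to Dagla lies at 3.01 ± 0.30 in sgRosa and 3.70 ± 0.34 in sgNr2f2, with sgNr2f2 replicate 3 inside the sgRosa range.

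Of 35 other genes of the pathway found in the table, 27 passed the filter, and 0 passed the edgeR adjusted test. The 27 lay 8 on the higher and 19 on the lower side, where 43.8% of all genes lay higher and 56.2% lower. Without sgRosa replicate 4 the split was 9 higher and 18 lower, against 47.5% and 52.5% of all genes. The median log2 fold change of the 27 was -0.37, against -0.11 over all genes tested, and -0.20 against -0.03 without sgRosa replicate 4. Among genes that drive 2-arachidonoylglycerol synthesis, Grm5, a glutamate receptor whose activation triggers it, had 64.3, 18.95, 35.4 and 82.3 CPM in sgRosa and 24.3, 20.2 and 21.6 CPM in sgNr2f2. The sgNr2f2 libraries were alike and lay just above the lowest sgRosa library. The log2 fold change was -1.19 (SE 0.52, edgeR adjusted p = 0.868, unadjusted p = 0.0453). Without sgRosa replicate 4 it was -0.85 (edgeR adjusted p = 0.474, unadjusted p = 0.0636). Chrm3, a muscarinic receptor that acts through the same G protein, had 20 to 73 counts in sgRosa and 9 to 26 in sgNr2f2 (log2 fold change -1.29, edgeR adjusted p = 0.868). The phospholipase gene Plcb4, which makes diacylglycerol, and the G protein gene Gna11 had log2 fold changes of 0.30 and 0.30. Dgke encodes a diacylglycerol kinase, which uses up the same substrate as the lipases. Its values were 19.1, 11.4, 10.6 and 12.3 CPM in sgRosa and 7.57, 8.75 and 6.23 CPM in sgNr2f2, so every sgNr2f2 library was lower than every sgRosa library (log2 fold change -0.83, SE 0.41, edgeR adjusted p = 0.868). It was the 1 pathway gene of 27 without overlap, against the background of 4.41% and 3.9% given above.

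Abhd12, another hydrolase of 2-arachidonoylglycerol, had 69.4, 58.7, 59.8 and 269.6 CPM in sgRosa and 67.1, 44.6 and 53.8 CPM in sgNr2f2. As with Mgll, Dagla and Abhd6, sgRosa replicate 4 stood alone, and the other libraries overlapped (log2 fold change -1.05, edgeR adjusted p = 0.868). Without that library sgRosa was at 62.6 ± 5.91 CPM (SD, n = 3), and the log2 fold change was -0.18. Ddhd2, a phospholipase that also cleaves diacylglycerol, and Gnao1, the G protein alpha subunit through which CB1 can signal, had log2 fold changes of 0.44 and 0.38 (edgeR adjusted p = 0.896 and 0.921). Ddhd2 was at 0.29 and Gna11 at 0.15 without sgRosa replicate 4. Cnrip1, whose product binds the tail of CB1, was at 10.9 ± 2.18 and 9.86 ± 1.05 CPM. The second cannabinoid receptor gene, Cnr2, an immune cell receptor, had 9 counts in all, 8 of them in sgRosa replicate 2, and Gpr55 had 4. The ion channel gene Trpv1, which anandamide can open, had 0 counts in all 7 libraries, which allows up to 3 counts per library (counting error only). Pparg, Gdpd3, Pla2g4e, Hrasls5 and Ces1d also did not pass the filter, with 1 to 29 counts each.

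**Figure D5:**
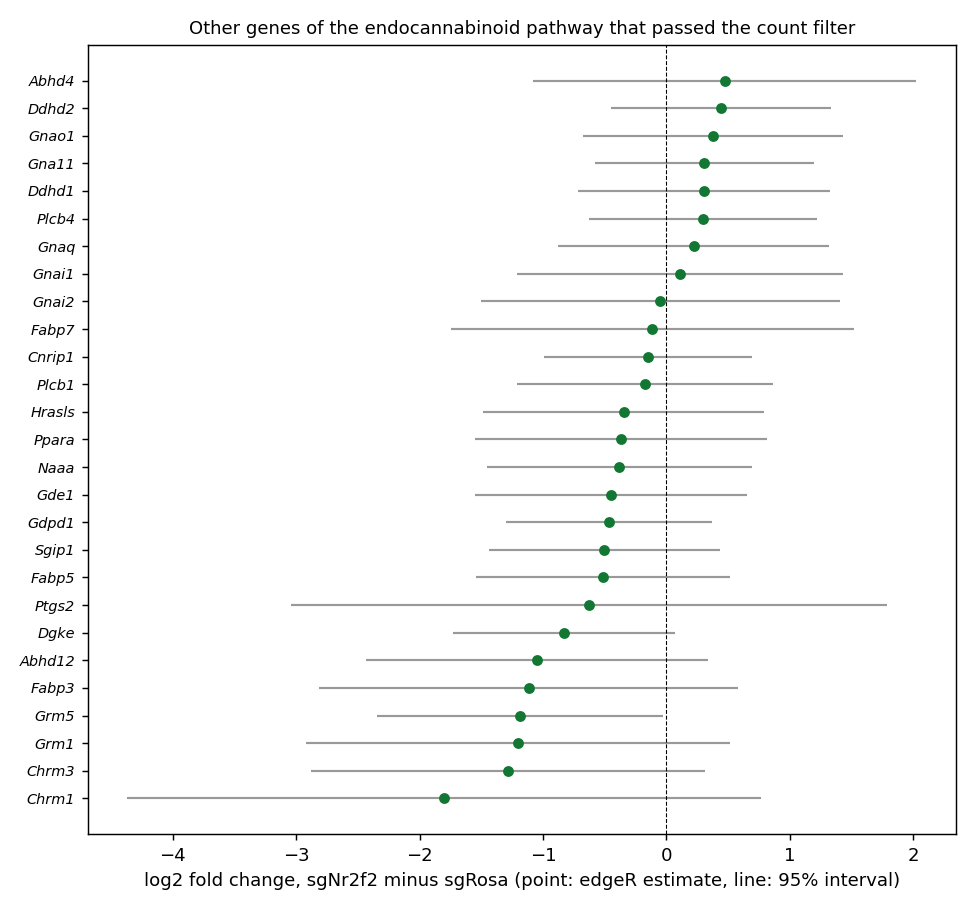
Log2 fold change (sgNr2f2 minus sgRosa) with its 95% confidence interval for the 27 other pathway genes that passed the count filter. Points run from -1.80 for Chrm1 to 0.47 for Abhd4, and the interval of Grm5 alone does not reach 0, before any adjustment. Of all genes, 2.18% were higher and 2.82% lower at an unadjusted edgeR p under 0.05.

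The genes whose profile over the 7 libraries was most like each member were taken as the highest Pearson correlations of log2 CPM among 11975 candidates, which is a description and carries no p. For Cnr1 these were Cntnap4, a neurexin-family gene of interneurons (r = 0.98), Phf11d (0.98) and C1ql2, a synaptic organizer (0.97). For Dagla they were the adhesion receptor gene Adgrb2, Tmem25 and the postsynaptic scaffold gene Tanc2 (0.99, 0.99 and 0.99). For Mgll they were Slc25a44, Ptpn5, which encodes the neuronal phosphatase STEP, and the ubiquitin ligase gene Mul1 (0.99 each). Abhd6 was most like Plxdc1, Kbtbd11 and Mapk1ip1 (0.99, 0.99 and 0.98), and without sgRosa replicate 4 the correlations of these 12 pairs were 0.91 to 0.98. Faah was most like Ldah, a lipid droplet hydrolase gene, then Wscd1 and Zfp579 (0.99, 0.98 and 0.97). Napepld was most like Naalad2, Cbx8 and Eif2d (0.99, 0.98 and 0.98), and Daglb like Exph5, Gucd1 and Slc26a11 (0.99, 0.94 and 0.93). The libraries share depth and cell makeup across all genes, and so many candidates for so few libraries give high correlations at the top.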

How the data were processed

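Raw counts per gene symbol were deposited by the authors, in 1 file for each library and in 1 table of the series, and each of the 7 single files matched the table value for value. Per the submitters' processing notes, the tools were STAR 2.7.5c, featureCounts 2.0.1, fastp 0.23.2, edgeR 3.42.4, MultiQC 1.11 and FastQC 0.11.9, and the build was mm10. Which annotation and strand setting were used is not given in the sources used here. The 7 members, the other pathway genes and the marker lists were chosen with earlier results of these data known.

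Counts were fitted over all genes in edgeR 4.0.16 (R 4.3.3, quasi-likelihood F test) with TMM factors, its default filter and the group as the only term, with Benjamini-Hochberg adjustment over all genes tested and a threshold of 0.05. SE and intervals come from the F statistic. Log2 CPM used a prior count of 2, and ratios had 0.5 counts added to each gene. Exact two-sided permutation tests used all 35 ways to assign the 7 libraries (smallest p 0.0286). The fit was tested on simulated data. DESeq2 1.42.0, limma 3.58.1 (voom), other scalings, no filter, a replicate block and leaving out each library were tried, and 3 further settings, and the marker lists and pathway genes without sgRosa replicate 4, were added after seeing the data. Exon lengths came from GENCODE M21 and loci and promoters from RefSeq GRCm38.p6, both on the mm10 assembly. The text names every member, for the other pathway genes the 4 of smallest p on each side, and the 3 most alike genes of each member. Cnrip1, Chrm1, Abhd4, Cck, Snap25, Gap43, Cx3cr1, P2ry12 and the genes under the filter were named after their values were seen. PCR reads without molecular identifiers are not independent molecules, so depth covers counting error only.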

Additional observations from a re-analysis of the deposited data

Results flagged for a closer look

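In 27 groups of 4 sgRosa values checked, 3 held a library far from the other 3, and chance alone flags about 1 in 20 such groups. Mgll was at 158 CPM in sgRosa replicate 4, against 44.7 CPM in the next library. Abhd12 was at 269.6 CPM in the same library, against 69.4 CPM in the next. Dagla per 10000 neuron marker counts was at 62.3 in sgRosa replicate 1, against 42.0 in the next library.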

How the results depend on the processing

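No member passed an adjusted threshold in any of the 19 alternatives of the fit over all genes. The exact tests of ratios and of values on the neuron marker scale say nothing on this, since after adjustment a single one could not have passed, and without 1 library their smallest p is 0.0667 or 0.1. Log2 fold changes of Cnr1, Napepld and Daglb kept their direction in all 19. The edgeR count of called genes, 0 higher and 0 lower, was 1 and 6 with DESeq2, and, in settings chosen after seeing the data, 233 and 125 with DESeq2 without sgRosa replicate 4 and 53 and 25 with scaling to the neuron markers without that library. Of the 27 pathway genes 12 in place of 19 lay lower with scaling to the neuron markers. That scaling moved the median of all genes from -0.11 to 0.33, and library size alone moved it to -0.33. The cause of the changes below was not tested.

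Mgll went from -0.21 to 0.80 with scaling to the neuron markers, 0.088 with limma-voom, 0.75 with its quality weights, and, without sgRosa replicate 4, to 0.67 with DESeq2, 0.64 with limma-voom and 0.75 with scaling to the neuron markers. Over the edgeR fits that left out 1 library it ran from -0.43 to 0.64. Abhd6 went from -0.55 to 0.32 with scaling to the neuron markers, 0.26 with quality weights, and, without sgRosa replicate 4, to 0.10 with DESeq2, 0.11 with limma-voom and 0.18 with scaling to the neuron markers, and ran from -0.77 to 0.068 without 1 library. Dagla went from -0.91 to 0.12 with scaling to the neuron markers (0.077 also without sgRosa replicate 4) and 0.34 with quality weights. Faah went from 0.09 to -0.19 with library size alone, -0.21 with limma-voom and -0.14 with limma-voom without sgRosa replicate 4, and ran from -0.58 to 0.52 without 1 library. Without 1 library the log2 ratio of Abhd6 to Dagla ran from -0.013 to 0.58 and that of Faah to Napepld from -0.65 to 0.96. On the neuron marker scale Faah ran from -0.041 to 1.09, Dagla from -0.14 to 0.31, Cnr1 from -1.36 to -0.094, Daglb from 0.53 to 1.67, Abhd6 from 0.22 to 0.54 and Napepld from -0.96 to 0.65.

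Replicate numbers are shared by the groups, but same-numbered libraries did not deviate together (r = -0.20, -0.26 and 0.09 for numbers 1 to 3), and none correlated best with its own number. With the replicate number as a block, which leaves out sgRosa replicate 4, edgeR called 0 genes, and the log2 fold changes were -1.05 for Cnr1, 0.64 for Mgll, -0.04 for Dagla, 0.41 for Daglb, -1.09 for Napepld, 0.13 for Abhd6 and -0.066 for Faah. Within the 3 pairs the difference on the neuron marker scale was -0.0065 for Faah and -0.96 for Napepld. The smallest p of a sign-flip test of 3 pairs is 0.25.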
